A study of Mus musculus with 24 samples.

Results

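The interleukins and interleukin receptors were followed here in activated mouse immune cells with and without miR-155. The set holds every gene symbol of the count files that starts with Il followed directly by a digit, except Il2, Il2ra, Il2rb and Il2rg. It counts 78 of 20673 genes, of which 35 code for ligands, 33 for receptor chains, 7 for antagonists or decoys, and 3 for other proteins that carry an interleukin symbol (Il1rapl1, Il1rapl2 and the amino acid oxidase Il4i1). RNA sequencing covered 4 cell types from C57BL/6J mice, with miR-155 present (wild type, WT) or deleted (knockout, KO), and 3 libraries in each of 8 groups. Splenic B cells had been activated with 25 ug/ml of the bacterial lipopolysaccharide LPS and 6.5 ng/ml IL-4. Dendritic cells, taken by CD11c beads from spleens of mice that carried a B16 melanoma secreting Flt3 ligand, were given 100 ng/ml LPS and 20 ng/ml of the growth factor GM-CSF. Peritoneal macrophages drawn by thioglycollate received 100 ng/ml LPS. CD4+CD25-CD44- T cells, sorted from spleens and lymph nodes, were stimulated with beads that carry antibodies to CD3 and CD28. Cell type, tissue and activating agent differ together, so a difference between cell types cannot be told apart from one between their cultures. The submitters call the libraries of a group sequencing replicates. The spread on which p-values rest is therefore that among libraries and may be technical.

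Interleukins are secreted proteins through which leukocytes signal to each other and to tissue cells. Most bind receptor complexes of a private ligand-binding chain and a shared signalling chain, which act through JAK kinases and STAT transcription factors. The IL-1 and IL-17 families instead signal through adaptors to NF-kB, and their action is held in check by soluble antagonists and decoy receptors. miR-155 is a microRNA that rises in activated immune cells and lowers messenger RNAs that carry a match to its seed in the 3' UTR.

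The mature microRNA and the matches below are printed because the deletion removes the former and several of the receptors that changed carry the latter. The mature sequence is from RefSeq on GRCm38.p6 (chr16:84714143-84714165, plus strand), with the seed, bases 2 to 8, in capitals. The matches are from GENCODE M21 transcripts on GRCm38, with 11 bases on either side and the match in capitals.
miR-155-5p: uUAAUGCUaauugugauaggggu
Il7r, 8mer at chr15:9506563-9506570: ttgggtgccttAGCATTAAaattctgttta
Il15ra, 8mer at chr2:11733968-11733975: tcagtacaaaaAGCATTAAaattatcaaca
Il6ra, 7mer-m8 at chr3:89869540-89869546: ccactgacctaAGCATTAgttattttatt
Il6ra, 7mer-m8 at chr3:89867085-89867091: ttgcattgttcAGCATTAccagatagagg
Il18r1, 7mer-m8 at chr1:40499103-40499109: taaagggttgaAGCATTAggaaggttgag
Il17ra, 7mer-m8 at chr6:120483784-120483790: acgtcttgcctAGCATTAgcaagccctga
Il1rl2, 7mer-m8 at chr1:40366031-40366037: ctcaggaaaccAGCATTAgggtgcagatc

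Il7r and Il15ra, the receptor chains for IL-7 and IL-15, hold the full 8mer AGCATTAA, and the others shown hold the 7mer-m8 AGCATTA. Il7r and Il6ra lie on the minus strand. The second Il6ra match is not in the transcript that the annotation marks as principal. Nor is a second Il15ra match, a 7mer-m8 at chr2:11734176-11734182, which is not printed above. The longest annotated 3' UTR was searched on the transcript strand for each symbol, and a longer motif was counted once and not again as the shorter motifs within it. Of the 77 interleukin-family genes with a 3' UTR, 10 (13.0%) held an 8mer, a 7mer-m8 or the 7mer-A1 GCATTAA, against 12.8% of the 20017 genes with one in the files. The other genes with such a match were Il17rd (8mer), Il21, Il1rapl1 and Il22ra1, none of which passed the filter on low counts in any cell type. Il13ra1, Il1rap, Il6st and Il7 held only the 6mer GCATTA. A match is a stretch of letters and was not tested for binding.

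Gene counts ran from 7428821 to 14219823 per library, and 3 counts were used here as the lowest level that can be read. Before TMM scaling these correspond to 0.211 to 0.404 CPM (gene counts scaled to a common library size). All other CPM values were scaled by edgeR's TMM factors over all 24 libraries and are on 1 scale throughout. On that scale 3 counts were, for example, 0.236 CPM in KO B cell replicate 1 and 0.426 CPM in KO dendritic cell replicate 3. In every pair of libraries of a group the counts differed by more than sampling noise. The summed level of fixed marker genes was high in the cells of that label: B cell markers were at 3974 to 4424 CPM in the B cell libraries, dendritic cell markers at 11246 to 15460 in the dendritic cell libraries, macrophage markers at 12590 to 18863 in the macrophage libraries and T cell markers at 2104 to 2274 in the T cell libraries. The level of miR-155 and of its host transcript was not analysed here, so the KO labels were not checked against the deleted gene. In cell populations sequenced in bulk, fewer cells of a type and less RNA per cell cannot be told apart.

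Of the 78 genes, 14 had no count in any of the 24 libraries, among them the ligands Il9, Il25 and Il31 and the receptor Il22ra1. A further 6 stayed under 3 counts in every library, namely Il19, Il1rl1, Il21, Il22ra2, Il34 and Il5. The filter on low counts was passed by 42 genes in at least 1 cell type and by 14 in all 4. The 16 that had 3 or more counts somewhere but passed in no cell type included T helper ligands: Il4 reached 5 counts in a T cell library, Il13 reached 3, and Il17a had no count in the T cell libraries. Il23a, the p19 chain of IL-23, did not exceed 6 counts in any library. At 3 counts, levels below those given above were not readable at this depth.

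Ligands passed the filter mostly in the myeloid cells. They numbered 10 in macrophages, 7 in dendritic cells, 4 in B cells and 1, Il16, in CD4 T cells, whereas receptor chains numbered 20, 23, 16 and 20. Among the 12 WT libraries all 38 tested members differed between cell types (edgeR adjusted p under 0.05), as did 97.1% of all genes tested. A gene's highest WT mean was in macrophages for 15 of the 38, in dendritic cells for 14, in CD4 T cells for 5 and in B cells for 4. The libraries of the highest cell type lay clear of the next for 12, 10, 2 and 3 of these.

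The IL-1 ligands and their antagonist Il1rn were highest in macrophages, whereas the decoy receptor Il1r2 was highest in dendritic cells. Il1b, the secreted inflammatory cytokine, was at 2267, 972 and 4038 CPM in the WT macrophage libraries, at 281, 311 and 321 in WT dendritic cells and at no more than 0.334 in WT B or T cells. Macrophages lay above dendritic cells, and dendritic cells above B and T cells, without overlap, although the macrophage libraries themselves differed widely. Il1a, its cell-associated relative, was at 278, 139 and 767 CPM in WT macrophages and 11.6, 19.8 and 31.0 in WT dendritic cells, and Il1rn, the IL-1 receptor antagonist, at 286, 218 and 309 and 4.98, 5.79 and 13.3. Per kilobase of coding length, the scale on which genes can be compared, Il1b led in WT macrophages with 2995 CPM, followed by Il1rn with 504, Il1a with 485, the IL-10 receptor chain Il10rb with 354 and the IL-4 receptor chain Il4ra with 335. Il18 (17.1 ± 3.43 CPM, mean ± SD, n = 3), Il1r1 (123 ± 44.0) and the IL-36 receptor Il1rl2 (91.3 ± 34.9) also had their highest WT mean in macrophages.

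In the other WT cell types the order was led by receptors, apart from Il1b in dendritic cells. On the same scale per kilobase, WT dendritic cells had Il1b at 376 CPM, the IL-21 receptor Il21r at 316, Il7r at 224, Il4ra at 215 and Il15ra at 177. WT B cells had Il4ra at 356, Il21r at 209, Il16 at 58.9, the IL-17 receptor chain Il17ra at 49.8 and Il10ra at 29.9. In WT CD4 T cells the leading values were lower, with Il21r at 89.3, Il4ra at 85.8, the shared IL-12 and IL-23 receptor chain Il12rb1 at 76.4, the IL-27 receptor Il27ra at 46.6 and Il16 at 42.0. The IL-12 chains were highest in different cell types. Il12b, the p40 chain of IL-12 and IL-23, was at 29.7, 31.7 and 20.3 CPM in WT dendritic cells and no more than 0.261 in any other WT library. Il12a, the p35 chain of IL-12, was at 88.8, 41.8 and 141 CPM in WT macrophages and 1.66, 2.29 and 4.73 in WT dendritic cells. Il10, an anti-inflammatory cytokine, was highest in WT B cells at 2.85, 2.51 and 5.07 CPM, and Il5ra, the IL-5 receptor chain, at 20.5, 17.7 and 16.3 CPM was clear of all other WT groups.

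**Figure D1:**
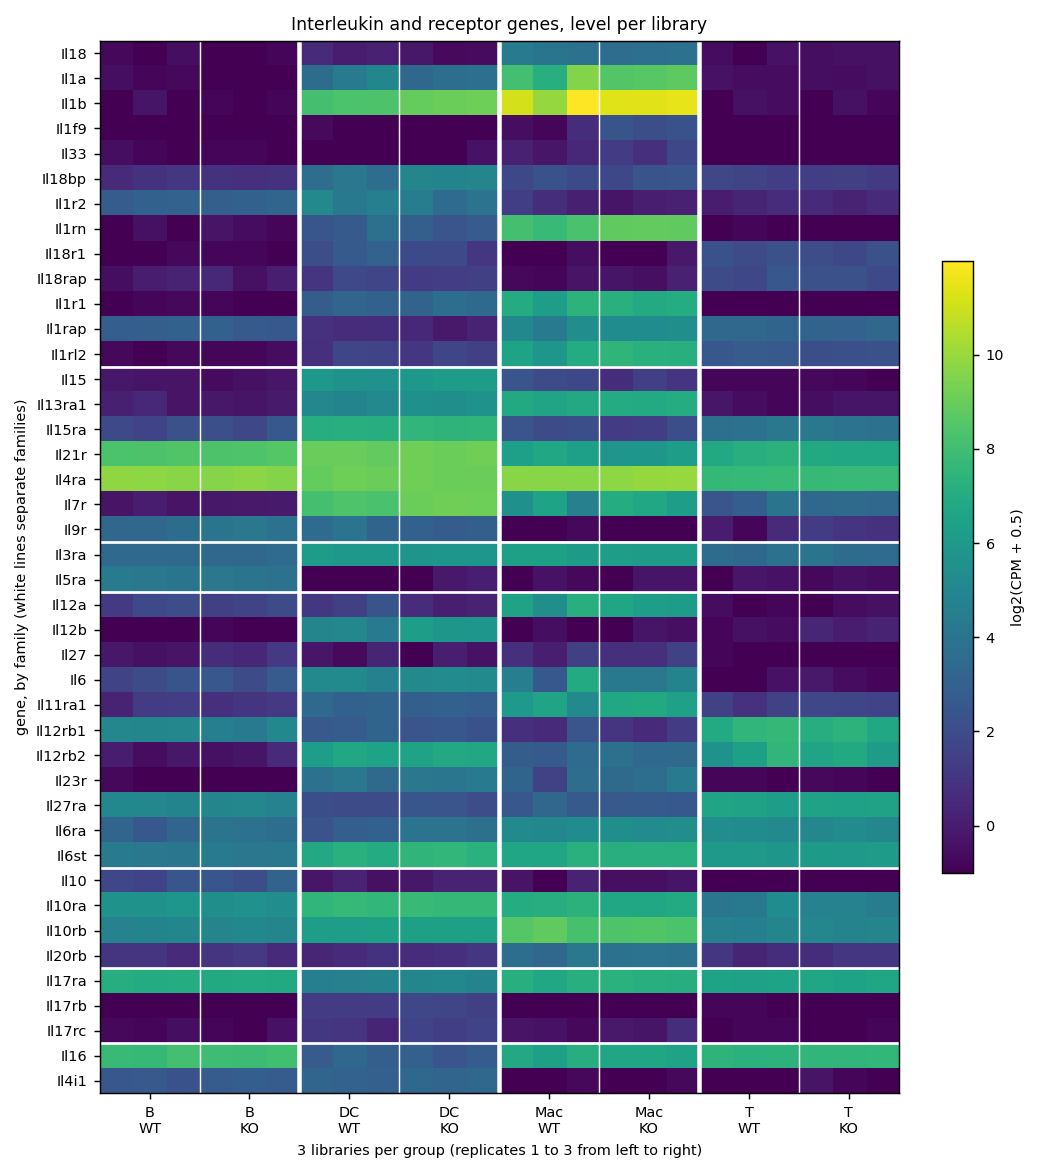
Level of the 42 interleukin-family genes that passed the filter in at least 1 cell type (rows, grouped by family) in each of the 24 libraries (columns, 3 per group, replicates 1 to 3 from left to right), as log2(CPM + 0.5) by colour. Il1b, Il1a and Il1rn are brightest in the macrophage columns, Il12b and Il15 in the dendritic cell columns, and Il4ra is bright in all.

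In dendritic cells 12 of the 34 interleukin-family genes that passed the filter changed without miR-155, 9 upward and 3 downward. The share called was 35.3%, against 21.6% of all 10536 genes tested (12.2% upward and 9.42% downward). The ligand genes Il12b, Il1b and Il15 rose, as did the receptor chains Il6ra, Il7r, Il13ra1, Il6st and Il15ra and the IL-18 antagonist Il18bp. The ligand Il12a and the receptor chains Il18r1 and Il9r fell. Il12a is counted here although it passed the filter only through the WT group, where it is high, which tilts its selection towards a difference. Over the 34 genes the median log2 difference, KO minus WT, was 0.19, beside -0.01 over all genes tested. KO and WT libraries did not overlap for any of the 12 called genes, which describes these calls and is no support beyond them. The share of all genes without overlap was not counted.

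Of the chains of IL-12, Il12b rose, and Il12a was low in every dendritic cell library. Il12b (p40) was at 74.1, 57.1 and 55.5 CPM in the KO libraries and at 29.7, 31.7 and 20.3 in the WT libraries, a log2 difference of 1.19 (SE 0.17, edgeR adjusted p = 0.00088). All KO libraries were above all WT libraries. Il12a (p35) was at 1.06, 0.548 and 0.710 CPM in KO and 1.66, 2.29 and 4.73 in WT, a log2 difference of -1.87 (SE 0.48, edgeR adjusted p = 0.02). These were low levels, with 4 to 8 counts in the KO libraries against 14 to 38 in WT, and the gene passed the filter only through the WT group. WT replicate 3 was the highest library for Il12a. Il23a, which pairs with p40 to form IL-23, stayed at 0 to 2 counts in dendritic cells of either genotype.

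Il1b was at 477, 536 and 547 CPM in KO dendritic cells and 281, 311 and 321 in WT, and its log2 difference was 0.77 (SE 0.09, edgeR adjusted p = 0.0002). The neighbouring gene Il1a, which lies beside it on chromosome 2, did not follow: it was at 9.67, 12.3 and 12.8 CPM in KO and 11.6, 19.8 and 31.0 in WT, a log2 difference of -0.84 (SE 0.33, edgeR adjusted p = 0.1). The KO values of Il1a reached into the WT range, and WT replicate 3 was again the highest. Il15, the cytokine that dendritic cells present to T cells and NK cells, was at 60.2, 71.8 and 69.6 CPM in KO and 59.7, 51.2 and 47.5 in WT, a log2 difference of 0.35 (SE 0.10, edgeR adjusted p = 0.038). The groups were close to each other, with KO replicate 1 only just above WT replicate 1. Il6 was at 34.0, 37.8 and 37.1 CPM in KO and 33.5, 35.4 and 25.7 in WT, which overlapped, and was not called (log2 difference 0.20).

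Both chains of the IL-6 receptor rose. Il6ra, the ligand-binding chain, was at 14.7, 14.8 and 13.5 CPM in KO dendritic cells and 4.50, 7.24 and 7.72 in WT, a log2 difference of 1.14 (SE 0.19, edgeR adjusted p = 0.002). Il6st, the shared signalling chain gp130, was at 180.5, 191 and 158 CPM in KO and 114, 149 and 126 in WT, a log2 difference of 0.44 (SE 0.11, edgeR adjusted p = 0.015). The gap between the groups was wide for Il6ra and narrow for Il6st, whose lowest KO library lay close to the highest WT library.

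Il7r, the IL-7 receptor chain that also serves in the TSLP receptor, was at 529.5, 579.8 and 554 CPM in KO dendritic cells and 285, 339.6 and 302 in WT. Its log2 difference was 0.84 (SE 0.08, edgeR adjusted p = 0.00013), the smallest p among the interleukin-family genes. Il13ra1, a chain of the IL-13 receptor, stood at 45.4, 43.3 and 48.7 CPM in KO and 32.1, 28.7 and 33.6 in WT, a log2 difference of 0.54 (SE 0.10, edgeR adjusted p = 0.0033). Il15ra, the chain on which IL-15 is presented, was at 185, 170.4 and 179 CPM in KO and 138, 147 and 135 in WT, a log2 difference of 0.35 (SE 0.07, edgeR adjusted p = 0.0072). For each of these receptors the KO libraries stood above the WT libraries without overlap.

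Of the IL-18 genes tested in dendritic cells, Il18bp rose, Il18r1 fell and Il18rap was not called. Il18bp, a secreted protein that binds IL-18 and keeps it from its receptor, was at 29.7, 28.8 and 29.4 CPM in KO dendritic cells and 11.9, 17.4 and 12.1 in WT, a log2 difference of 1.09 (SE 0.15, edgeR adjusted p = 0.0006). The KO libraries were nearly level, and WT replicate 2 was the highest of its group. Il18r1, the ligand-binding chain of the IL-18 receptor, was at 3.31, 3.15 and 1.56 CPM in KO and 3.79, 5.92 and 7.85 in WT, a log2 difference of -1.12 (SE 0.33, edgeR adjusted p = 0.035). Its partner chain Il18rap had a log2 difference of -0.21. Il9r, the IL-9 receptor chain, was at 7.55, 6.30 and 7.24 CPM in KO and 11.3, 14.8 and 8.60 in WT, a log2 difference of -0.72 (SE 0.21, edgeR adjusted p = 0.031). KO libraries of Il18r1 and Il9r were below all WT libraries.

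**Figure D2:**
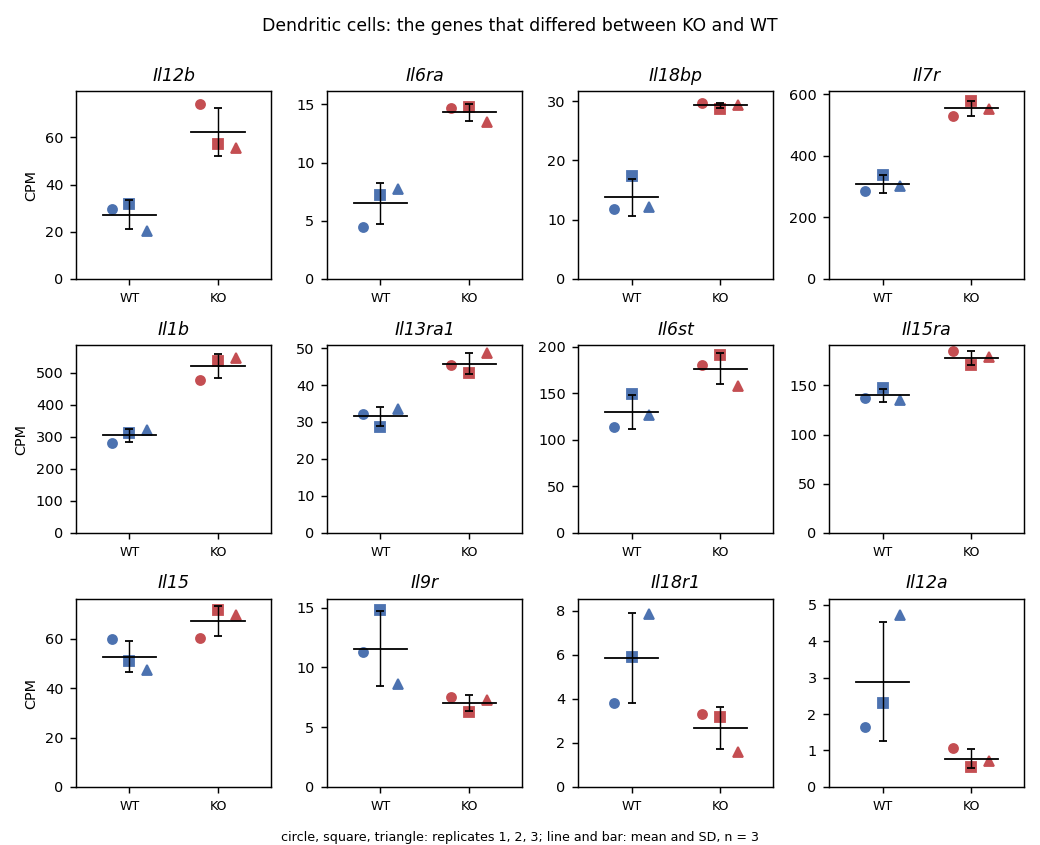
The 12 interleukin-family genes called in dendritic cells, in CPM (y axes from 0), with each library as a point (circle, square and triangle for replicates 1, 2 and 3), WT in blue and KO in red, and the line and bar as mean and SD (n = 3). The groups do not overlap in any panel, the separation is wide for Il12b, Il6ra, Il18bp, Il7r and Il1b, and Il15 KO replicate 1 (60.2 CPM) sits just above WT replicate 1 (59.7 CPM).

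Calls for Il12b, Il6ra, Il18bp and Il13ra1 held with every library left out in turn and in every other setting tried. Il7r, Il1b and Il15ra held without any library but missed the threshold when all 24 libraries shared 1 estimate of the spread (edgeR adjusted p = 0.064, 0.079 and 0.066). The other 5 calls depended on single libraries. Il12a was no longer called when KO replicate 2, KO replicate 3 or WT replicate 3 was left out (edgeR adjusted p = 0.086, 0.074 and 0.065), and its log2 difference was -1.33 without WT replicate 3. Il15 was lost when replicate 2 or 3 of KO or of WT was left out (edgeR adjusted p = 0.16, 0.13, 0.064 and 0.13), and both Il12a and Il15 were also lost in the fit of all 24 libraries (0.10 and 0.062). Il18r1 was lost without any library except WT replicate 1 (edgeR adjusted p from 0.053 to 0.13), Il9r without any KO library or WT replicate 2 (0.075 to 0.12), and Il6st when KO replicate 1 or 2 or WT replicate 3 was left out (0.06 to 0.079).

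The remaining 22 tested genes were not called in dendritic cells. Il1r2, the decoy receptor for IL-1, was at 21.2, 11.2 and 14.9 CPM in KO and 33.9, 18.3 and 23.9 in WT, which overlapped (log2 difference -0.69, SE 0.27, edgeR adjusted p = 0.11). It passed the threshold with DESeq2 (adjusted p = 0.027), as did Il1a (0.015), where DESeq2 called 18.0% of all genes. Il1rn, at a log2 difference of -0.42, was at 0.15 without WT replicate 3. Il17ra, which carries a 7mer-m8, was at 30.1, 33.3 and 28.7 CPM in KO and 24.2, 24.4 and 27.4 in WT, with no overlap but a log2 difference of only 0.28 (SE 0.10, edgeR adjusted p = 0.084). Il4ra (0.06), Il10ra (0.05), Il12rb2 (0.18), Il21r (0.14), Il1rl2 (0.00), Il1r1 (0.42) and Il12rb1 (-0.51) were likewise not called.

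Some markers of other cells differed between genotypes in the dendritic cell libraries, and others did not. The summed level of the macrophage markers, of which 7 of 8 were in the files and all 7 were detected, was 93.0, 73.4 and 74.6 CPM in KO and 98.5, 136 and 256 CPM in WT. Among them Cd68, C1qa, C1qb and C1qc were lower in KO without overlap, and Adgre1, Csf1r and Mertk overlapped. Neutrophil markers summed to 1.59 to 1.85 CPM in KO and 3.67, 3.38 and 13.6 CPM in WT. WT replicate 3 was highest in both lists and was also the highest WT library for Il12a, Il18r1, Il1a and Il1rn. Over the 34 tested members, WT replicate 3 was the highest WT library for 10, replicate 2 for 15 and replicate 1 for 9. B cell markers went the other way, at 14.17, 22.3 and 24.4 CPM in KO and 6.64, 10.3 and 13.2 in WT. The dendritic cell markers summed to 14691 to 15460 CPM in KO and 11246 to 12079 in WT, and most of that gap was in Fscn1 (8300.4, 8582 and 8439.7 CPM in KO, 5243, 5494 and 5203 in WT). Flt3 was at 1504 to 1622 CPM in KO and 1463 to 1504 in WT, and Ccr7, Zbtb46, Itgax, Xcr1, Clec9a and Batf3 overlapped. Stromal and melanoma markers were at 2.25 CPM or under in all dendritic cell libraries. The summed T cell, CD8 T cell, NK cell, plasmacytoid and plasma cell markers overlapped between KO and WT. NK cell markers, for example, were at 18.1 to 18.7 CPM in KO and 12.4 to 21.3 in WT. The part of all these marker genes in the results above was not tested. Without WT replicate 3, 13.9% of all genes and 8 of 35 tested interleukin-family genes were called, 7 upward and Il9r downward.

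In B cells 2 of 23 tested interleukin-family genes changed, the receptor chains Il6ra and Il9r, and both rose. This is 8.7% of the members tested, against 3.2% of the 10151 genes tested (2.09% upward and 1.11% downward). The median log2 difference of the members was 0.01, beside -0.00 over all genes. Il6ra was at 15.5, 14.0 and 12.5 CPM in KO B cells and 9.05, 5.52 and 8.77 in WT, a log2 difference of 0.87 (SE 0.16, edgeR adjusted p = 0.0081). Il9r was at 15.7, 17.4 and 14.3 CPM in KO and 9.54, 10.1 and 11.7 in WT, a log2 difference of 0.60 (SE 0.12, edgeR adjusted p = 0.01). For both receptors every KO library was above every WT library. The Il6ra call was lost without KO replicate 2 (edgeR adjusted p = 0.052), and the Il9r call when KO replicate 2 or WT replicate 1 or 2 was left out (0.072, 0.074 and 0.068) and in the fit of all 24 libraries (0.40). The summed plasma cell markers, all 4 of them detected, were at 591, 643 and 712 CPM in KO B cells and 529, 576 and 608 in WT, which overlapped. Among them Prdm1 was at 25.0, 28.1 and 39.1 CPM in KO and 12.3, 16.1 and 21.5 in WT, and Sdc1 at 3.70 to 3.89 and 2.42 to 3.12, both without overlap. T cell markers summed to 25.8 to 28.2 CPM in KO and 33.5 to 34.3 in WT. Nearly all of this was Lck, at 25.2, 25.3 and 27.0 CPM in KO and 33.6, 33.8 and 33.2 in WT. Every other T cell marker was under 1 CPM in each B cell library. The part of these marker genes in the B cell results was not tested.

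The receptors for the cytokine in the B cell culture and for T cell help were not called. Il4ra was at 780.1, 853 and 771 CPM in KO B cells and 915, 879 and 805 in WT (log2 difference -0.11, SE 0.06, edgeR adjusted p = 0.34). Il21r, the receptor for the follicular helper cytokine IL-21, was at 321, 342 and 379 CPM in KO and 319.7, 329 and 348 in WT (log2 difference 0.06). The libraries of KO and WT overlapped for both. Il10 was at 5.12, 3.80 and 8.17 CPM in KO and 2.85, 2.51 and 5.07 in WT, with KO replicate 3 highest and the groups overlapping (log2 difference 0.71, SE 0.34, edgeR adjusted p = 0.35). Il17ra (-0.13), Il10ra (-0.24), Il12rb1 (-0.31), Il6 (0.44), Il12a (-0.06), Il15ra (0.35), Il6st (0.00), Il1r2 (0.08) and Il1rap (-0.19) were not called either.

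No interleukin-family gene was called in macrophages among 32 tested, where 0.885% of the 10730 genes were called (0.55% upward and 0.336% downward). At an unadjusted p under 0.05 there were 7 such genes, where 17.8% of all genes were, DESeq2 called 2, Il1f9 and Il1rn, where it called 5.46% of all genes, and the smallest edgeR adjusted p was 0.063. Il1f9, the IL-36 gamma ligand, was at 4.73, 3.79 and 4.39 CPM in KO macrophages and 0.208, 0.0938 and 1.12 in WT, a log2 difference of 3.19 (SE 0.59, edgeR adjusted p = 0.063). All KO libraries were above the WT libraries, of which replicates 1 and 2 were under 3 counts, and the gene passed the filter only through the KO group. The macrophage libraries share only a replicate number, and same-numbered ones were taken as paired by a cut on the correlation of their deviations. With the number as a block Il1f9 was called (log2 difference 3.23, SE 0.54, edgeR adjusted p = 0.037), as were 2.47% of all genes.

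Il1rn was at 455, 464 and 442 CPM in KO macrophages and 286, 218 and 309 in WT, a log2 difference of 0.76 (SE 0.15, edgeR adjusted p = 0.076). Il1rl2, the receptor on which the IL-36 ligands act, was at 177, 151 and 140.1 CPM in KO and 91.9, 56.1 and 126 in WT, a log2 difference of 0.79 (SE 0.28, edgeR adjusted p = 0.21). KO libraries of both genes were above all WT libraries, without a call. Il33, the alarmin of the IL-1 family, was at 1.87, 1.23 and 3.08 CPM in KO and 0.623, 0.375 and 0.918 in WT and passed the filter only through KO (log2 difference 1.70, SE 0.48, edgeR adjusted p = 0.15). Il15 was at 1.10, 2.23 and 1.54 CPM in KO and 4.78, 3.38 and 2.96 in WT, lower in KO without overlap (log2 difference -1.16, SE 0.32, edgeR adjusted p = 0.14).

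The WT macrophage libraries differed strongly among themselves in inflammatory ligands. Il6 was at 22.6, 5.53 and 119.9 CPM in the 3 WT libraries and at 18.5, 17.8 and 28.6 in KO. Replicate 3 was 21.7 times replicate 2 in Il6, 5.50 times in Il1a, 4.15 times in Il1b and 3.36 times in Il12a. Il7r and Il11ra1, the IL-11 receptor chain, went the other way, with replicate 2 at 3.76 and 2.63 times replicate 3. Il11ra1 has a close copy, Il11ra2, with which reads could be shared. WT replicate 3 was the highest WT library for 21 of the 32 genes and WT replicate 2 the lowest for 22. Of these genes 28 had at least 1 CPM in every WT library. Their highest and lowest WT library differed by a median of 1.63 times, against 1.36 times over all genes at that level. The difference was more than 2-fold for 10 of the 28, against 11.5% of all genes at that level.

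Directions also rested on WT replicate 3: the log2 difference of Il6 was -1.18 with it and 0.66 without it, and that of Il12rb1 -0.63 and 0.46, neither of them called. The KO values lay between the WT extremes for many of these ligands. Il1a was at 367, 387 and 439 CPM and Il1b at 2559.9, 2689.8 and 2922 CPM in the KO libraries, and Il12a at 99.9, 76.2 and 72.8 CPM. All KO values lay inside the WT range for 12 of the 32 interleukin-family genes and for 34.0% of all genes tested. Without WT replicate 3, 25.4% of all genes and 8 of the 32 members were called. Those upward were Il1f9 (log2 difference 4.77) and Il33 (2.06), which had passed the filter only through the KO group where they are high, and Il1rl2 (1.10), the IL-12 receptor chain Il12rb2 (0.91), Il1rn (0.87), the IL-1 receptor accessory chain Il1rap (0.65) and Il6st (0.51), and Il15 (-1.29) was downward. No member was called when any of the other 5 libraries was left out. In the fit of all 24 libraries, which share 1 estimate of the spread, 6 of 42 members were called, where 14.3% of 12249 genes were, namely Il1f9, Il1rn, Il1rl2, Il15, Il21r and Il11ra1. Stromal markers summed to 314, 248 and 594 CPM in KO macrophages and 167, 104 and 286 in WT, from Col1a1, Col3a1 and Dcn, with Msln, Upk3b and Krt19 under 1 CPM, and B cell markers to 87.4 to 118 CPM and 49.9 to 164 CPM. Macrophage markers summed to 12590 to 13587 CPM in KO and 14095 to 18863 in WT. Among them C1qa (543 to 831 CPM in KO, 1138 to 2815 in WT), C1qb and C1qc were lower in KO without overlap. Adgre1, Cd68, Mertk and Csf1r overlapped, with Csf1r at 3868 to 4542 CPM in KO and 3454 to 3997 in WT. The part of these marker genes in the values was not tested.

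The other macrophage genes were not called either. Il10ra was at 108, 104 and 119.9 CPM in KO and 131, 135 and 164 in WT (log2 difference -0.35, SE 0.13, edgeR adjusted p = 0.22), and Il21r at 54.6, 57.6 and 73.4 in KO and 78.6, 106 and 79.3 in WT (log2 difference -0.49, SE 0.17, edgeR adjusted p = 0.2). Both were lower in KO without overlap. Il4ra, at 882, 966 and 1025 CPM in KO and 816, 807 and 823 in WT, was higher in KO without overlap (log2 difference 0.25, SE 0.12, edgeR adjusted p = 0.32). Among the remaining genes, log2 differences were -0.36 for Il18, 0.29 for Il27, the p28 chain of IL-27, 0.21 for Il13ra1, 0.12 for Il17ra, 0.21 for Il6ra, 0.28 for Il6st, 0.15 for Il1r1, 0.40 for Il1rap, -0.14 for Il10rb, -0.63 for Il12rb1 and 0.57 for Il12rb2.

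**Figure D3:**
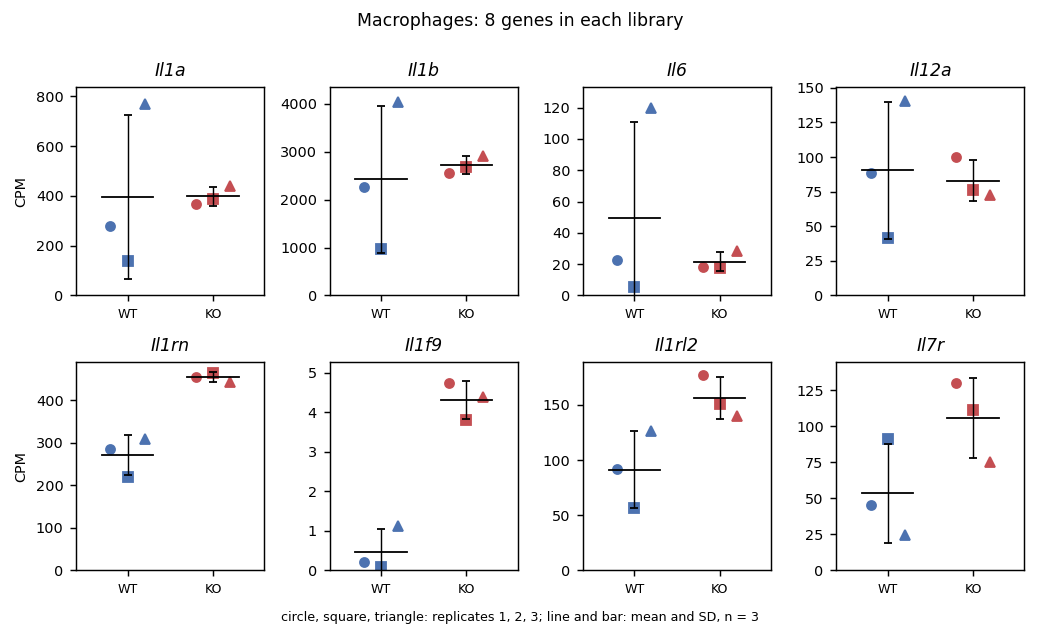
Levels of 8 interleukin-family genes in macrophages, in CPM (y axes from 0), with each library as a point (circle, square and triangle for replicates 1, 2 and 3), WT in blue and KO in red, and the line and bar as mean and SD (n = 3; the lower bars of Il6 and Il1f9 in WT are cut at 0). WT replicate 3 is the highest library and WT replicate 2 the lowest for Il1a, Il1b, Il6 and Il12a, with the KO libraries between them, while the KO libraries stand above WT for Il1rn, Il1f9 and Il1rl2.

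In CD4 T cells none of the 23 tested interleukin-family genes was called, where 2.15% of the 10396 genes were (1.35% upward and 0.798% downward). An unadjusted p under 0.05 was reached by 5, where 18.1% of all genes reached it, DESeq2 called Il21r alone (log2 difference -0.36, adjusted p = 0.013), where it called 2.13% of all genes, and the smallest edgeR adjusted p was 0.088, for Il16. Il21r was at 119.5, 109 and 104 CPM in KO and 119, 145 and 162 in WT, lower on average in KO (log2 difference -0.36, SE 0.12, edgeR adjusted p = 0.2) with WT replicate 1 inside the KO range. Il16, a chemoattractant for CD4+ cells, was at 186, 185 and 191 CPM in KO and 173, 157 and 170.0 in WT, with no overlap (log2 difference 0.16). Without WT replicate 1 both were called (edgeR adjusted p = 0.0025 for Il21r and 0.043 for Il16), as were 5.69% of all genes.

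The IL-12 receptor chains varied widely between T cell libraries of a genotype. Il12rb2, its signalling chain, was at 93.5, 117 and 69.2 CPM in KO and 47.9, 82.5 and 186 in WT (log2 difference -0.18, SE 0.59, edgeR adjusted p = 0.92). Il12rb1 was at 137, 165 and 107 CPM in KO and 123, 186 and 198 in WT (log2 difference -0.31). WT replicate 3 was the highest library for both. It was also highest for Il7r, at 9.78, 10.8 and 9.89 CPM in KO and 4.81, 6.96 and 15.4 in WT, and without it Il7r was called upward (log2 difference 0.79, edgeR adjusted p = 0.018), as were Il10ra (0.50, adjusted p = 0.022) and Il9r (2.26, adjusted p = 0.034), beside 3.89% of all genes. Il12rb2 was at 0.52 without it. Il9r passed the filter only through the KO group, where it is high. With all libraries it was at 1.87, 1.46 and 1.29 CPM in KO and 0.534, 0.0871 and 0.974 in WT, where replicate 2 was under 3 counts (log2 difference 1.51, SE 0.49, edgeR adjusted p = 0.13).

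Il6ra, whose level in T cells was the highest WT mean of the 4 cell types, was at 32.0, 37.7 and 31.1 CPM in KO T cells and 41.2, 39.7 and 34.4 in WT (log2 difference -0.19, SE 0.09, edgeR adjusted p = 0.28). The groups overlapped, and the KO mean was the lower. Il4ra (0.03), Il6st (0.08), Il17ra (0.13), Il15ra (0.03), Il18r1 (-0.16), Il27ra (0.00), Il1r2 (0.12), Il1rl2 (-0.49) and Il1rap (-0.14) were not called.

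**Figure D4:**
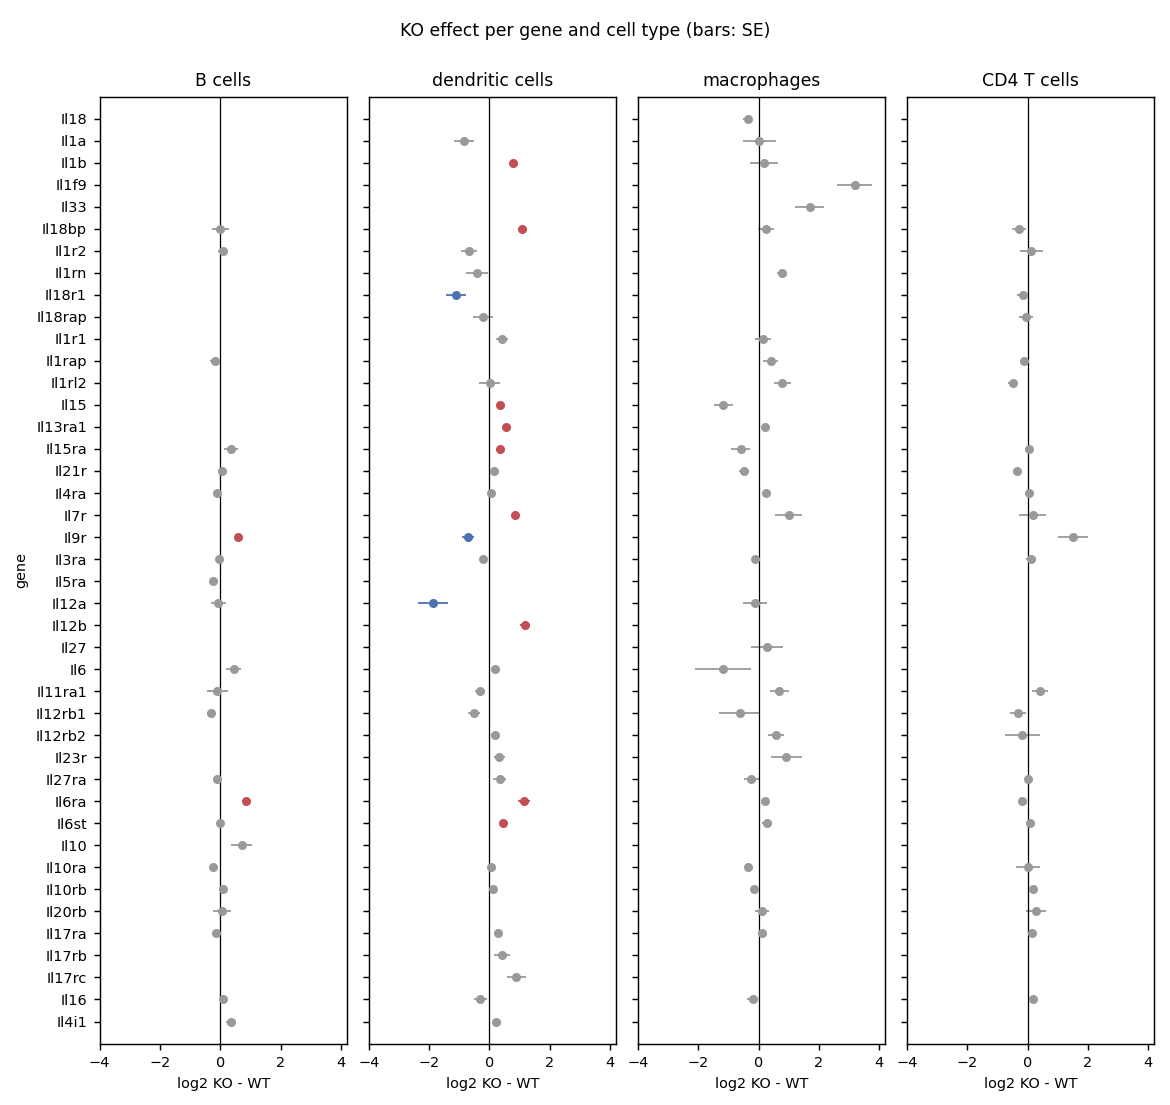
Log2 difference between KO and WT (x axes, with SE as bars) for each interleukin-family gene that passed the filter, by cell type, with called genes in red (higher in KO) or blue (lower in KO) and the rest in grey. Called genes appear in B cells (2) and dendritic cells (12), and the longest bar is that of Il6 in macrophages, where the SE was 0.93.

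The title of the series asks about cellular context, and the difference of the KO effect between cell types was tested directly. It differed for 5 of the 42 interleukin-family genes tested (edgeR, 3 contrasts together, all 24 libraries), against 12.6% of 12249 genes, so the members' count is near the background. The 5 were Il6ra (edgeR adjusted p = 0.0011), Il15 (0.0044), Il18bp (0.0072), Il9r (0.0099) and Il21r (0.026). Pairs of cell types were compared after this test as a description, with adjustment over all genes in each of the 6 pairs. No member was called between B cells and macrophages (2.67% of genes) or between B cells and T cells (0.0571%), and Il1rl2 alone was called between macrophages and T cells (3.63%). Between dendritic cells and macrophages 5 members were called (9.27% of genes), among them Il15ra (difference 0.96, SE 0.29, edgeR adjusted p = 0.039). Neither Il15ra nor Il1rl2 was called over the 4 cell types together (edgeR adjusted p = 0.1 and 0.069).

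Il6ra had a log2 difference of 0.86 in B cells and 1.15 in dendritic cells, but 0.19 in macrophages and -0.19 in CD4 T cells. The dendritic cell effect exceeded the macrophage effect by 0.95 (SE 0.23, edgeR adjusted p = 0.011, where 9.27% of genes were called) and the T cell effect by 1.34 (SE 0.23, edgeR adjusted p = 0.0011, 6.1% of genes). Its WT level was lowest in the cells where it rose: 9.05, 5.52 and 8.77 CPM in B cells and 4.50, 7.24 and 7.72 in dendritic cells, against 35.6, 32.6 and 39.3 in macrophages and 41.2, 39.7 and 34.4 in T cells. KO B cells and KO dendritic cells stayed below every macrophage and T cell library.

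Il9r rose in B cells and fell in dendritic cells, and the effects differed by 1.31 (SE 0.33, edgeR adjusted p = 0.02, 5.63% of genes for this pair). WT levels in these cells overlapped. In macrophages Il9r did not exceed 1 count in any library, so its effect there could not be read. Il18bp had a log2 difference of 1.09 in dendritic cells, 0.01 in B cells, 0.22 in macrophages and -0.29 in T cells. The dendritic cell effect was larger than that in macrophages by 0.87 (SE 0.27, edgeR adjusted p = 0.043) and than that in T cells by 1.38 (SE 0.29, edgeR adjusted p = 0.0048).

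Il15 was higher without miR-155 in dendritic cells (0.35) and lower in macrophages (-1.18), and the effects differed by 1.53 (SE 0.27, edgeR adjusted p = 0.00098). WT dendritic cells had 52.8 ± 6.29 CPM of it and WT macrophages 3.70 ± 0.952 CPM (mean ± SD, n = 3), and no B or T cell library had more than 4 counts. Il21r had log2 differences of 0.06, 0.14, -0.51 and -0.35 in B cells, dendritic cells, macrophages and T cells, with a called difference between dendritic cells and macrophages (0.65, SE 0.17, edgeR adjusted p = 0.019). The overall call for Il21r was lost without dendritic cell KO replicate 3, dendritic cell WT replicate 3, macrophage KO replicate 1 or macrophage KO replicate 2. The other 4 calls held with every library left out.

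**Figure D5:**
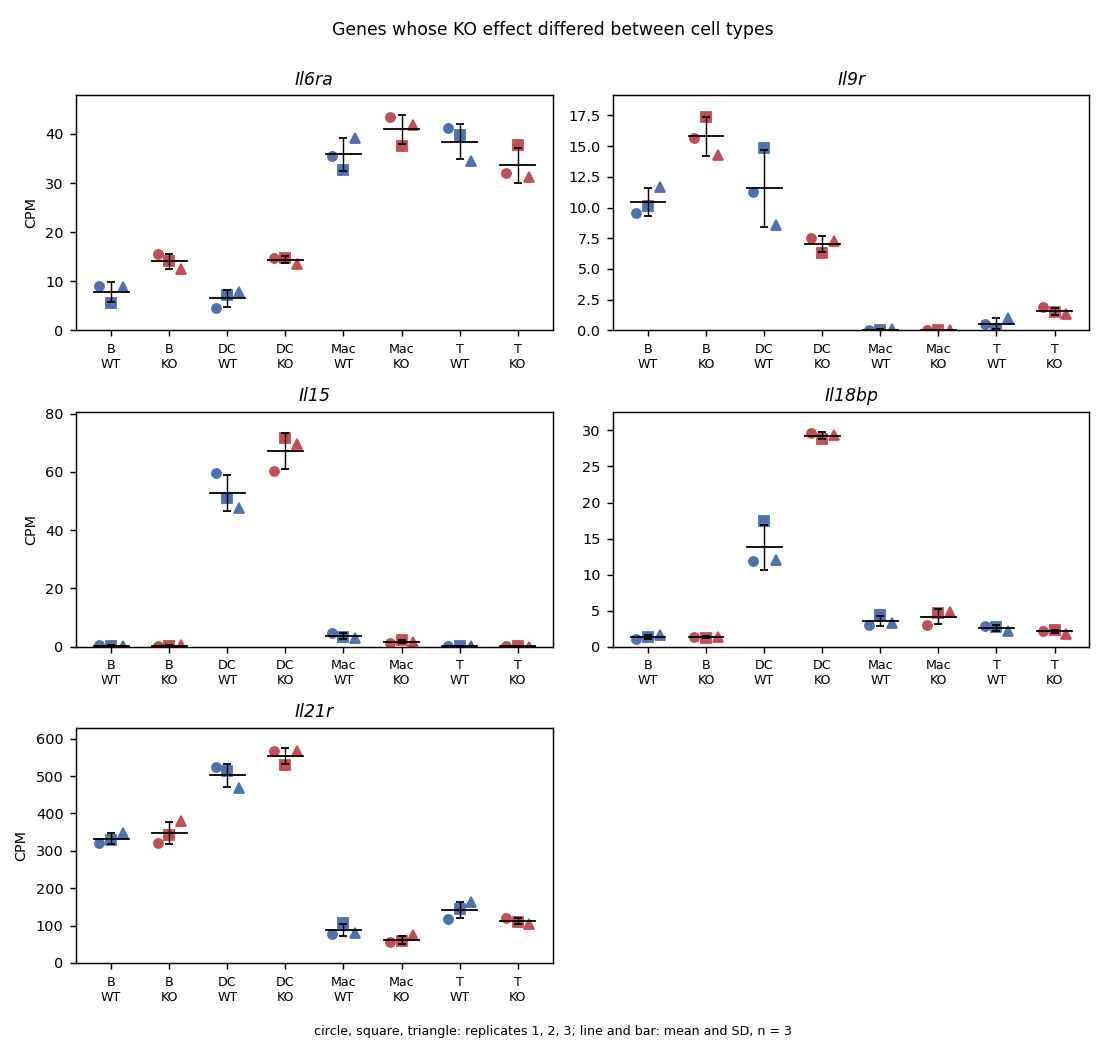
Levels of the 5 genes whose KO effect differed between cell types, in CPM (y axes from 0) for the 8 groups (B, B cells; DC, dendritic cells; Mac, macrophages; T, CD4 T cells), with each library as a point, WT in blue and KO in red, and the line and bar as mean and SD (n = 3; bars that pass below 0 are cut there). KO libraries of Il6ra stand clear above WT in B and dendritic cells, Il9r is higher in KO B cells and lower in KO dendritic cells, and Il18bp separates in dendritic cells.

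The receptors that rose were then set beside the seed matches. In dendritic cells 6 members with an 8mer or 7mer were tested, and Il7r, Il15ra and Il6ra rose, Il18r1 fell, and Il17ra and Il1rl2 were not called. Among all genes tested there, 353 of 1470 with such a match (24.01%) and 812 of 8221 without any (9.88%) rose. Both tested members with only a 6mer, Il13ra1 and Il6st, rose, where 118 of 790 such genes did (14.9%), and among the 26 without a match Il12b, Il1b, Il15 and Il18bp rose and Il12a and Il9r fell. In B cells, of the 3 tested members with an 8mer or 7mer Il6ra rose, while Il15ra (0.35) and Il17ra (-0.13) were not called. Of all genes tested there, 7.17% of 1409 with such a match and 1.26% of 7921 without any rose. None of the 5 such members tested in macrophages was called, where 1.14% of genes with a match and 0.442% without rose. In CD4 T cells none of 6 was called (median log2 difference -0.07), where 3.76% of genes with a match and 0.939% without rose. Il7r had 3 to 6 counts in the WT B cell libraries and was not tested there. In macrophages Il7r was at 130.2, 111 and 75.3 CPM in KO and 45.1, 91.2 and 24.3 in WT, with overlap (log2 difference 0.999, SE 0.45, edgeR adjusted p = 0.3), and Il15ra had a log2 difference of -0.60. A rise of the message in a given cell type and the presence of a match are set side by side here, and no test of the members was made.

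Several members lie beside each other. On GRCm38 the receptor genes Il1r2, Il1r1, Il1rl2, Il1rl1, Il18r1 and Il18rap follow each other on chromosome 1 between 40074079 and 40551705, and in dendritic cells their log2 differences were -0.69 for Il1r2, 0.42 for Il1r1, 0.00 for Il1rl2, -1.12 for Il18r1 and -0.21 for Il18rap, with Il1rl1 untested. Only Il18r1 was called among these. On chromosome 2, Il1f9 and Il1rn lie in a run of IL-1 family genes between 24153161 and 24351494, whose other members Il1f8, Il1f6, Il1f5 and Il1f10 were not above 3 counts in any library.

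Genes that work with interleukins but carry other symbols were counted from fixed lists. The counts stand beside 21.6% of all genes called in dendritic cells, 3.2% in B cells, 0.885% in macrophages and 2.15% in T cells. Of 11 partner chains, Ebi3, the chain that completes IL-27 and IL-35, fell in dendritic cells by 1.05 on the log2 scale (SE 0.14, edgeR adjusted p = 0.00055) and rose in B cells, 0.47 (SE 0.08, edgeR adjusted p = 0.0046). In dendritic cells it was the only called gene of 6 tested (list median -0.03), and in B cells of 6 tested (0.26). In macrophages 1 of 8 was called, Osmr, the oncostatin M receptor chain that pairs with gp130, at a log2 difference of 1.96 (SE 0.27, edgeR adjusted p = 0.041), and in T cells 0 of 3.

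Of 17 JAK, STAT and feedback genes, 4 rose and 2 fell in dendritic cells (list median 0.07), and edgeR called none in the other cell types. Among those that rose were the kinase gene Jak2 (0.29), the IL-12 responsive Stat4 (0.47) and the STAT inhibitor Pias1 (0.52), and those that fell were Jak3 (-0.37), the kinase of the common gamma chain, and the feedback inhibitor Cish (-0.37). In IL-1 signalling and processing, 3 of 16 rose and 2 fell in dendritic cells (list median 0.02). Tab2, an adaptor between receptor complexes and the kinase TAK1, rose in dendritic cells, 0.53 (SE 0.08, edgeR adjusted p = 0.00095), in B cells, 0.52 (SE 0.06, edgeR adjusted p = 0.00011), and in T cells, 0.49 (SE 0.05, edgeR adjusted p = 0.00063). In macrophages its log2 difference was 0.57 (SE 0.12, edgeR adjusted p = 0.081). Casp4 (0.35) and Irak1 (0.34) also rose in dendritic cells, and the adaptor genes Myd88 (-0.63) and Pycard (-0.53) fell. Casp1, the protease that cleaves pro-IL-1 beta, rose in B cells (0.33).

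Regulators of cytokine messages were called in dendritic cells and not elsewhere, apart from Cebpb in B cells (0.95). Among 11 mRNA decay factors, Zfp36 (0.54), Zfp36l1 (0.29), Zc3h12d (0.31) and Khsrp (0.23) rose and Zc3h12a, which codes for Regnase-1, fell (-0.43; list median 0.23). Among 12 tested transcription factors Nfkb1 (0.32), Rela (0.44) and Irf4 (0.32) rose, and Batf (-1.37) and Nfatc2 (-1.13) fell (list median 0.03). Of the 3 IL-17 signalling genes, the adaptor Traf3ip2 fell (-0.57; list median -0.00). Whether these effects differed between cell types was not tested for the lists.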

How the data were processed

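The authors deposited 1 file per library (24) of raw counts, each an unnormalized whole number of reads assigned to a gene symbol's coding sequence. Per the submitters' processing notes, cutadapt, STAR and the mm9 build were used. For the counter, tool versions and use of strand, nothing is given in the sources used here. Reads in no counted feature (51.4 to 61.1% of counts) were left out. Groups and replicate numbers came from the titles. CPM values and log2 differences were computed here from the deposited counts.

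KO was compared with WT within each cell type (3 against 3 libraries) by edgeR 4.0.16 in R 4.3.3 on the deposited counts, with TMM scaling, filterByExpr (minimum count 10, total 15) and the robust quasi-likelihood F test. Calls required an adjusted p under 0.05 (Benjamini-Hochberg over all genes). SE is the absolute log2 difference over the square root of F. Cell types and the difference of the KO effect were tested over 12 WT and all 24 libraries. Scripts were tested on simulated data.

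Alternatives were RLE scaling, DESeq2 1.42.0, no filter, 1 CPM in at least 3 libraries, all 24 libraries in 1 fit, the replicate number as a block, and leaving out each library. Same-numbered libraries were taken as paired where every correlation of their deviations was over 0.1, which held in macrophages (0.125, 0.3 and 0.385) but not in B cells (0.182, 0.0276 and 0.213) or the others. In macrophages KO replicate 1 with WT replicate 2 was also over this cut (0.112). The pairing is thus inferred from the values and is uncertain. For the WT B cells the numbers in the titles differ from those in the deposited files' names, so their pairing is uncertain. The members and lists were chosen with earlier results of these data known. Named genes were the called members, those whose KO effect differed, the 5 with the highest WT level per kilobase in each cell type, a list of 28 and those with an 8mer or 7mer (39 in all). Il11ra1, Il18rap, Il1f9, Il33, Il5ra, Il17f, Il22, Il7 and Il3 are outside this rule and were named after their values were seen.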

Additional observations from a re-analysis of the deposited data

Results flagged for a closer look

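The KO effect differed between the 4 cell types for 5 interleukin-family genes, by edgeR's test of the difference itself over all 24 libraries. That is 5 of 42 tested, and 12.6% of all genes differed as well. For Il6ra (adjusted p = 0.0011) dendritic cells had the highest log2 difference (1.15) and B cells the next (0.86), above macrophages (0.19) and CD4 T cells (-0.19). Il15 (edgeR adjusted p = 0.0044) had 0.35 in dendritic cells and -1.18 in macrophages, with no more than 4 counts in any B or T cell library. Il18bp (edgeR adjusted p = 0.0072) had 1.09 in dendritic cells and values from -0.29 to 0.22 elsewhere. Il9r (edgeR adjusted p = 0.0099) had 0.60 in B cells and -0.72 in dendritic cells, and in macrophages it did not exceed 1 count. Il21r (edgeR adjusted p = 0.026) had 0.14 in dendritic cells and -0.51 in macrophages. With 3 libraries in a group, no group was large enough to be examined for outlying libraries.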

How the results depend on the processing

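Over the alternatives, 969 of 1077 single-gene values kept their sign and side of the threshold, 29 lost a call and 30 gained one. Another 49 values, over 25 of 90 gene results, had the other sign, 48 of them called under neither setting. Il6 in macrophages ran from -1.71 to 0.66 with a library left out. Il10ra in T cells, at a log2 difference of 0.00 with all libraries, ran from -0.22 to 0.50 with a library left out and was called upward without WT replicate 3. B cell members called numbered 2, 1 in the fit of all 24 libraries, 6 with the replicate block and 1 to 3 with a library left out. All genes called there were 325, 81 in the fit of all 24 libraries, 501 unfiltered, 1260 with the block and 141 to 441 with a library left out. Dendritic cell members called were 12, and 7 to 14 with a library left out (all genes 2279, and 1176 to 2870). Macrophage members were 0, 2 with DESeq2, 6 in the fit of all 24 libraries, 1 unfiltered, 1 with the block and 0 to 8 with a library left out (all genes 95, 586 with DESeq2, 1755 in the fit of all 24, 265 with the block and 0 to 2746). T cell members were 0, 1 with DESeq2 and 0 to 3 with a library left out (all genes 223, 63 in the fit of all 24, 478 unfiltered and 32 to 598). Members with a differing KO effect were 5, 8 with DESeq2 and 4 to 11 with a library left out (all genes 1548, and 1121 to 3619). The causes were not tested. In B cells, dendritic cells and T cells the rule for pairing was not met, with same-numbered correlations from -0.241 to 0.213. The B cell block added Il10, Il10ra, Il12rb1 and Il4ra, and the dendritic cell block added Il1a and Il1r2. RLE scaling changed no member call. Low ligands at 3 counts or under could not be read at this depth.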

Other observations

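Some ligands outside the filter were seen in few libraries. Il17a, the T helper 17 cytokine, was at 0.440, 0.446 and 2.86 CPM in the KO macrophage libraries (4 to 26 counts) and 0, 0 and 0.714 in WT. Il17f was at 0.220, 0.111 and 1.54 and 0, 0 and 0.612 CPM, and Il22 at 0.220, 0 and 1.98 and 0, 0 and 0.102 CPM. Replicate 3 was the highest library of its genotype for these ligands, and the summed T cell markers in the macrophage libraries were at 0.991 to 1.76 CPM in KO and 1.12 to 3.00 in WT. Il22 was at 0.662, 0.822 and 0.568 CPM in KO dendritic cells and 0, 0.241 and 0.374 in WT, without overlap, at 0 to 6 counts. Il7 was at 0.794, 1.51 and 0.994 CPM in KO dendritic cells and 0.830, 1.09 and 0.872 in WT and had no count in T cells. Il3 was at 0.832, 0.244 and 0.602 CPM in KO T cells and 0.267, 0.435 and 1.33 in WT, and had no count in the other cell types. None of these passed the filter, so none was tested.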
